A study of Mus musculus with 6 samples.

Results

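Genes for histone-modifying enzymes and Polycomb proteins were examined in haematopoietic stem cells (HSC) of wildtype and PU.1 knockdown mice. Members were the probe sets whose single platform gene symbol was a lysine demethylase (Kdm), lysine methyltransferase (Kmt, Setd), histone deacetylase (Hdac, Sirt), lysine acetyltransferase (Kat, Crebbp, Ep300), arginine methyltransferase (Prmt) or chromobox and Polycomb gene (Cbx, Pcgf, Phc, Ezh1, Ezh2, Eed, Suz12, Ring1, Rnf2). The rule used names alone. It found 218 of 44991 probe sets, for 89 of 18186 genes, and each gene was represented by the brightest of its probe sets, by mean over the 6 arrays. The cells had been sorted by flow cytometry from bone marrow and profiled on Affymetrix Mouse Genome 430 2.0 arrays after 2 rounds of RNA amplification. The control group was wildtype, with 3 arrays (WT HSC 1 to 3), and the other group was PU.1 knockdown (PU.1 KD HSC 1 to 3), also with 3 arrays, each array holding RNA pooled from 3 animals. Spi1 encodes PU.1, a DNA-binding regulator of the ETS family without which myeloid cells and B cells do not form properly. The sources used here do not state how PU.1 was reduced, nor the strain, sex or age of the animals, nor the surface markers of the sort.

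The enzymes examined write and erase chemical marks on histone tails. Polycomb repressive complex 2 (PRC2), built from Eed, Suz12 and Ezh1 or Ezh2, methylates lysine 27 of histone H3, and PRC1 complexes, built around Ring1 or Rnf2, place ubiquitin on histone H2A and compact chromatin. Kmt2 and Setd1 enzymes methylate lysine 4 of histone H3 at promoters and enhancers, acetyltransferases such as Crebbp and Ep300 mark active regions, and deacetylases and demethylases remove these marks. In blood formation, PRC1 and Kmt2a are known for sustaining stem cells, and Kdm1a, Ezh2 and Crebbp for their part in differentiation and leukaemia.

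Values are log2 of the processed intensity plus 16, quantile normalised, and each difference is knockdown minus wildtype, with its standard error (SE) from limma. A log2 value compares pools for the same probe set and does not rank genes by abundance. Spi1 itself had log2 values of 10.13, 9.42 and 10.08 across wildtype pools 1 to 3 and 8.73, 8.55 and 7.06 in the knockdown pools, so the groups did not overlap for the targeted gene (difference -1.76, SE 0.43, limma adjusted p = 0.503). Correlations across probe sets were 0.964 to 0.979 within wildtype, 0.968 to 0.974 within knockdown and 0.955 to 0.973 between the groups. Wildtype pool 2 stood apart on cell type markers. Its 10 measured stem and progenitor genes (of 12 listed, with Kit, Flt3 and Cd34 among them) summed to 17906 intensity units, against 9146 and 9470 in wildtype pools 1 and 3 and 9284 to 10895 in the knockdown pools. Of these genes, Slamf1 had a log2 value of 8.23 in wildtype pool 2, beside 8.16 and 8.66 in wildtype pools 1 and 3. Procr was highest in knockdown pool 3 (10.68, beside 10.43 in wildtype pool 2), and the others were highest in wildtype pool 2. The 12 neutrophil granule genes of wildtype pool 2 summed to 24244 units, against 51104 to 62192 in the other wildtype pools and 47816 to 61932 in the knockdown pools. Of the 12 granule genes, 11 had a mean over the 6 arrays above the median of all probe sets, Elane and Mpo included, although the cells are labelled HSC. Some other marker lists also differed between the groups, though not on every measure or for every gene. The 7 measured B lymphoid genes of 8 summed to 1663 to 2124 units in the wildtype and 539 to 1620 in the knockdown pools, while their mean log2 values overlapped (7.60 to 7.76 against 6.37 to 7.68) and Pax5 averaged 0.11 higher in the knockdown pools. The 8 measured megakaryocyte and platelet genes of 10 summed to 7538 to 15243 against 2551 to 7908 units, and their mean log2 values did not overlap (8.93 to 10.03 against 7.15 to 8.92). The 7 eosinophil, mast cell and basophil genes summed to 2088 to 10645 against 2073 to 3674 units and went both ways, with log2 differences of -3.69 for Epx and -3.06 for Prg2 and of 2.69 for Gzmb and 2.05 for Cpa3. No listed marker had an adjusted p under 0.05 in limma, and the part of these markers in the differences below was not tested. In such bulk samples fewer cells of a type and less RNA per cell cannot be told apart.

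The histone-modifying and Polycomb genes differed between the groups about as much as all genes did. Of the 89 members, 0 had a limma adjusted p (Benjamini-Hochberg over all probe sets) under 0.05, where the share over all genes was also 0%, and the lowest value any member reached was 0.564. An unadjusted p under 0.05 was found for 7 members (7.87%), against 7.63% of all genes. Of these, Kat8, Kdm1a, Prmt5 and Setd4 were on the higher side in the knockdown pools (4 members, 4.49%, beside 4.1% of all genes), and Setd5, Kdm4a and Cbx7 on the lower side (3 members, 3.37%, beside 3.52%). These shares lie near the background. The groups did not overlap for 10 members (11.2%), 6 higher and 4 lower in the knockdown pools, against 13.8% of all genes (8.42% higher and 5.39% lower). The median difference over the members was -0.0076, against 0.018 over all genes, and the median size of a difference without its sign was 0.145 for both. Knockdown means were higher for 42 members (47.2%), against 53.4% of all genes.

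These arrays could bound the size of a change for most members. The median SE of a member's difference was 0.18. For 82 of the 89 members (92.1%, beside 88.8% of all genes) the 95% interval of the difference lay within a 2-fold change in either direction, each interval taken by itself. A p that misses the threshold does not show equal levels, and the intervals for single genes are given below. Of the 59 members with several probe sets, 25 had all of them on the same side of 0. Over all 218 member probe sets, 16 had an unadjusted p under 0.05 (7.34%, beside 7.11% of all probe sets).

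**Figure D1:**
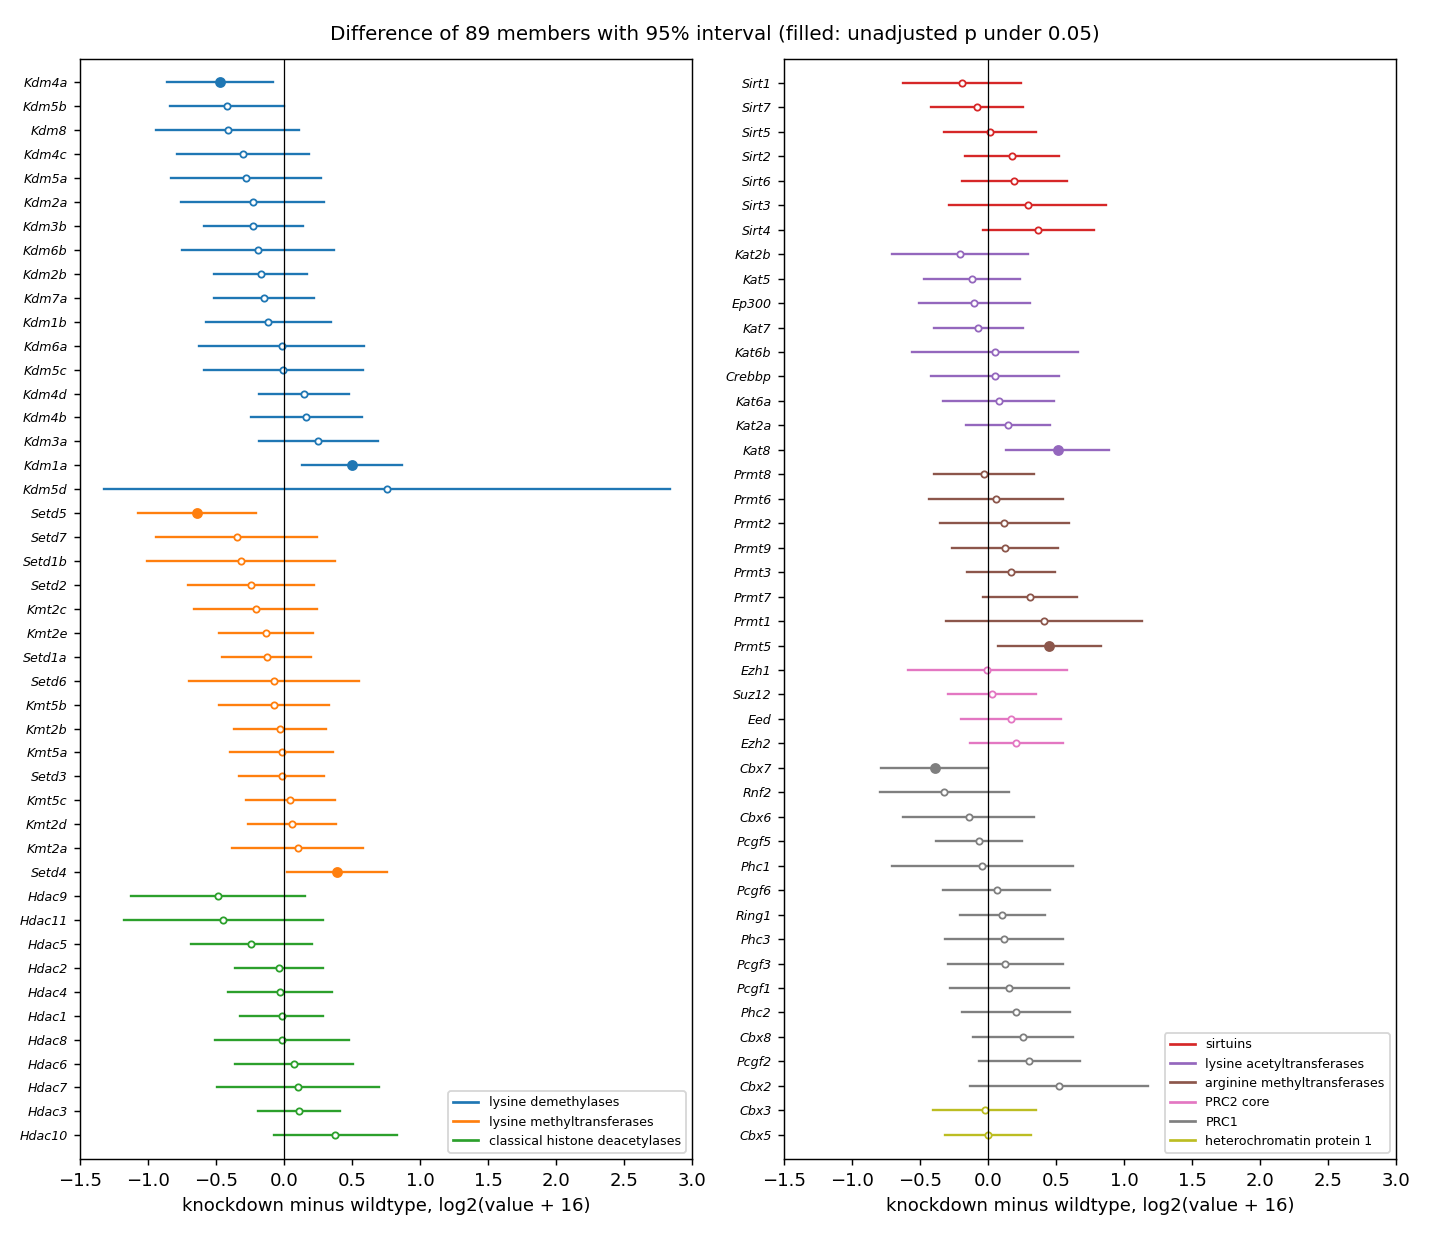
Knockdown minus wildtype difference of each of the 89 member genes on the log2(value + 16) scale, by class; points are limma estimates, bars are 95% intervals, and filled points have an unadjusted p under 0.05. The filled points are the 7 members Setd5, Kdm4a, Cbx7, Setd4, Prmt5, Kdm1a and Kat8, and the widest interval is that of Kdm5d.

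Among the PRC2 core, which writes the repressive methylation of lysine 27 of histone H3, no member passed the test. With all arrays, all groups overlapped on the brightest probe set of each gene. The catalytic subunit gene Ezh2 had log2 values of 10.43, 10.45 and 10.64 in the wildtype pools, in order of their number, and 10.55, 10.78 and 10.81 in the knockdown pools. Wildtype pool 3 lay above knockdown pool 1, and the difference was 0.21 (SE 0.15, 95% interval -0.13 to 0.55, limma adjusted p = 0.815). Eed, which binds the methylated histone tail, had 10.07, 10.51 and 10.41 in the wildtype and 10.52, 10.51 and 10.47 in the knockdown pools. Wildtype pool 1 was the lowest and wildtype pool 2 near the top of the 6. The difference was 0.17 (SE 0.16, interval -0.20 to 0.53) with all arrays, 0.036 without wildtype pool 1, and 0.26, with groups that no longer overlapped, without wildtype pool 2. Suz12, a structural subunit, had 10.05, 9.90 and 10.06 against 10.03, 10.15 and 9.92, a difference of 0.029 (SE 0.14, interval -0.29 to 0.35). Its 6 probe sets differed by -0.086 to 0.21.

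Ezh1, the alternative catalytic subunit that predominates in resting cells, had log2 values of 8.64, 9.42 and 8.43 in the wildtype and 8.81, 8.77 and 8.90 in the knockdown pools. Wildtype pool 2 was the highest of all pools and the other wildtype pools were close to or below the knockdown pools. The difference was -0.0054 (SE 0.25, interval -0.59 to 0.58) with all arrays and 0.29 without wildtype pool 2 (limma adjusted p = 0.68). The enzymes that erase the same mark, Kdm6a and Kdm6b, had differences of -0.018 (SE 0.26) and -0.19 (SE 0.24), the latter 0.051 without wildtype pool 2.

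PRC1 genes had 9 of 14 members on the higher and 5 on the lower side in the knockdown pools, with a median difference of 0.11. That median was 0.22 without wildtype pool 2 (11 of 14 higher), 0.019 without wildtype pool 1 (7 of 14 higher) and 0.050 without wildtype pool 3 (8 of 14 higher). The catalytic subunit gene Rnf2 had log2 values of 9.70, 10.17 and 10.09 in the wildtype and 9.33, 9.72 and 9.94 in the knockdown pools. The groups overlapped, and the difference was -0.32 (SE 0.21, 95% interval -0.80 to 0.15, limma adjusted p = 0.792), while its 5 probe sets ran from -0.32 to 0.15. Ring1, its paralogue, had 7.24, 7.12 and 7.02 against 7.28, 7.20 and 7.21 (difference 0.10, SE 0.14, interval -0.21 to 0.42).

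The chromobox subunits, which read the PRC2 mark, pointed in different directions. Cbx7 had log2 values of 7.78, 7.99 and 7.65 in the wildtype and 7.64, 7.37 and 7.23 in the knockdown pools, so the groups did not overlap, with wildtype pool 3 and knockdown pool 1 almost touching. Its difference of -0.39 (SE 0.17, limma adjusted p = 0.698) was -0.19 when its 3 probe sets were averaged. Cbx2 had 8.76, 9.95 and 9.09 against 9.80, 9.76 and 9.80. The knockdown pools were tightly placed, wildtype pools 1 and 3 lay well below them and wildtype pool 2 above. The difference was 0.52 (SE 0.28, interval -0.13 to 1.18, limma adjusted p = 0.762) with all arrays and 0.86 without wildtype pool 2 (limma adjusted p = 0.248). Cbx8 differed by 0.26 (SE 0.16) and Cbx6 by -0.14 (SE 0.21), which was 0.063 without wildtype pool 2.

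Pcgf subunits, which set the type of PRC1 complex, included Pcgf2, whose log2 values were 5.97, 5.99 and 6.28 in the wildtype and 6.27, 6.57 and 6.32 in the knockdown pools (difference 0.30, SE 0.16, interval -0.065 to 0.67). Wildtype pool 3 and knockdown pool 1 were nearly equal. This probe set, the brightest of Pcgf2, had a mean below the median of all probe sets. The other one differed by -0.35 (SE 0.23), and their average by -0.021. The other Pcgf genes under the naming rule differed by -0.07 (Pcgf5) to 0.16 (Pcgf1). Bmi1, a PRC1 subunit that the rule did not take in, is not counted among these PRC1 members. It differed by -0.47, without overlap, and is given with the partner genes below. The Polyhomeotic genes differed by -0.042 (Phc1), 0.11 (Phc3) and 0.20 (Phc2). For Phc1, wildtype pool 2 had 9.77 beside 8.93 and 8.65 in the other wildtype pools and 8.93 to 9.34 in the knockdown pools. Without that pool Phc1 turned to 0.29 and Phc3 was at 0.27, both with groups that did not overlap. Cbx3 and Cbx5, whose proteins (heterochromatin protein 1) bind methylated lysine 9 of histone H3, differed by -0.027 (SE 0.16) and -0.0042 (SE 0.14). Cbx3 had 6.49, 6.14 and 6.35 in the wildtype and 6.48, 6.12 and 6.31 in the knockdown pools. The 5 probe sets of Cbx5 disagreed, from -0.34 to 0.59. Those at 0.37 (SE 0.16) and 0.59 (SE 0.19) had groups that did not overlap, and the one at -0.34 (SE 0.28) was the dimmest.

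Lysine demethylases were on the lower side in the knockdown pools for 13 of 18 genes, with a median difference of -0.16. The median was -0.027 without wildtype pool 2 (11 of 18 lower) and -0.064 without knockdown pool 1 (11 of 18 lower), and -0.25 without wildtype pool 1 or 3. Kdm1a (LSD1), which removes methyl groups from lysine 4 of histone H3 in complexes with Rcor1 and deacetylases, was on the higher side. It had log2 values of 9.29, 9.30 and 8.93 in the wildtype and 9.78, 9.67 and 9.56 in the knockdown pools. All knockdown pools lay above all wildtype pools, a difference of 0.50 (SE 0.16, 95% interval 0.13 to 0.87, limma adjusted p = 0.604), which corresponds to a ratio of 1.41. Its other probe set also did not overlap between groups, with a difference of 0.46 (SE 0.17). Across the alternative processings and with any array left out the difference of Kdm1a stayed between 0.37 and 0.56, with an unadjusted p above 0.05 without wildtype pool 3.

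Kdm4a, a demethylase of lysines 9 and 36 of histone H3, had log2 values of 9.86, 10.21 and 10.14 in the wildtype and 9.41, 9.59 and 9.80 in the knockdown pools. All knockdown pools lay below the wildtype pools (difference -0.47, SE 0.17, interval -0.86 to -0.08, limma adjusted p = 0.655), and the second, dimmer probe set differed by -0.75 (SE 0.27) with groups that overlapped. Kdm5b, an eraser of methylation at lysine 4 of histone H3, lay just outside an unadjusted p of 0.05 and was picked out after its values were seen. It had 9.81, 10.03 and 9.64 against 9.58, 9.52 and 9.12, with groups that did not overlap (difference -0.42, SE 0.18, limma adjusted p = 0.704). Without knockdown pool 3, its lowest value, the difference was -0.275. All 4 of its probe sets had differences below 0.

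The other autosomal demethylases had intervals that spanned 0, with differences from -0.41 for Kdm8 to 0.25 for Kdm3a. Kdm4c differed by -0.30 (SE 0.21), Kdm5a by -0.28 (SE 0.24), Kdm2a by -0.23 (SE 0.23) and Kdm3b by -0.23 (SE 0.16). Kdm2b, the subunit that brings a PRC1 variant to unmethylated CpG islands, differed by -0.17 (SE 0.15). For Kdm7a the brightest probe set differed by -0.15 and the next brightest by -0.17 (SE 0.15). Another 2 of its 5 probe sets differed by 0.51 (SE 0.17) and 0.65 (SE 0.24). Those lay near the floor, at log2 values of 4.27 to 5.19 and 4.09 to 5.40.

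X- and Y-linked demethylases set the pools apart in another way. Kdm5d, which lies on the Y chromosome, had log2 values of 4.11, 7.70 and 7.61 in the wildtype and 6.89, 8.01 and 6.80 in the knockdown pools. Wildtype pool 1 was near the floor, with a deposited intensity of 1.49 beside 94.6 to 239.7 in the other 5 pools. Eif2s3y, another Y-linked gene, was likewise low in wildtype pool 1 alone (4.30 beside 7.03 to 8.30). Xist, the RNA of the inactive X chromosome of females, had 12.17, 11.85 and 6.74 in the wildtype and 11.64, 7.05 and 12.06 in the knockdown pools. Uty, the third measured Y-linked gene, went the other way on its brightest probe set, with 7.97 in wildtype pool 1 and 7.14 to 7.96 in the other pools. Over all probe sets, wildtype pool 1 was lowest for 1 of 3 of Kdm5d, 2 of 2 of Eif2s3y and 2 of 4 of Uty. Wildtype pool 3 and knockdown pool 2 were thus low for Xist, and wildtype pool 1 was low for Eif2s3y and for the brightest probe set of Kdm5d.

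Kdm5c and Kdm6a, X-linked genes known to escape X inactivation, followed a similar split within the wildtype group. Kdm5c had log2 values of 9.76, 9.02 and 8.76 in the wildtype and 9.03, 9.27 and 9.21 in the knockdown pools. Kdm6a had 9.81, 9.41 and 8.72 against 9.31, 9.19 and 9.39. For both, wildtype pool 1 was the highest and wildtype pool 3 the lowest of all 6 pools, although knockdown pool 2, with its low Xist, was not low for Kdm5c. Of all probe sets, wildtype pool 1 was highest for 3 of 9 of Kdm5c and 2 of 4 of Kdm6a. Among other X-linked escape genes measured, Eif2s3x was also highest in wildtype pool 1 (10.27) and lowest in wildtype pool 3 (9.38). Ddx3x was not split this way, with 11.13, 11.06 and 11.11 in the wildtype and 10.17, 10.83 and 10.84 in the knockdown pools. Its groups did not overlap (difference -0.49, SE 0.20, limma adjusted p = 0.691). Without wildtype pool 1 the differences were 0.28 for Kdm5c, 0.23 for Kdm6a and -0.43 for Kdm5d. With all arrays they were -0.0076 (SE 0.25) for Kdm5c, -0.018 (SE 0.26) for Kdm6a and 0.76 (SE 0.90, 95% interval -1.33 to 2.84) for Kdm5d, and the part of the sex makeup of the pools in these values was not tested.

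**Figure D2:**
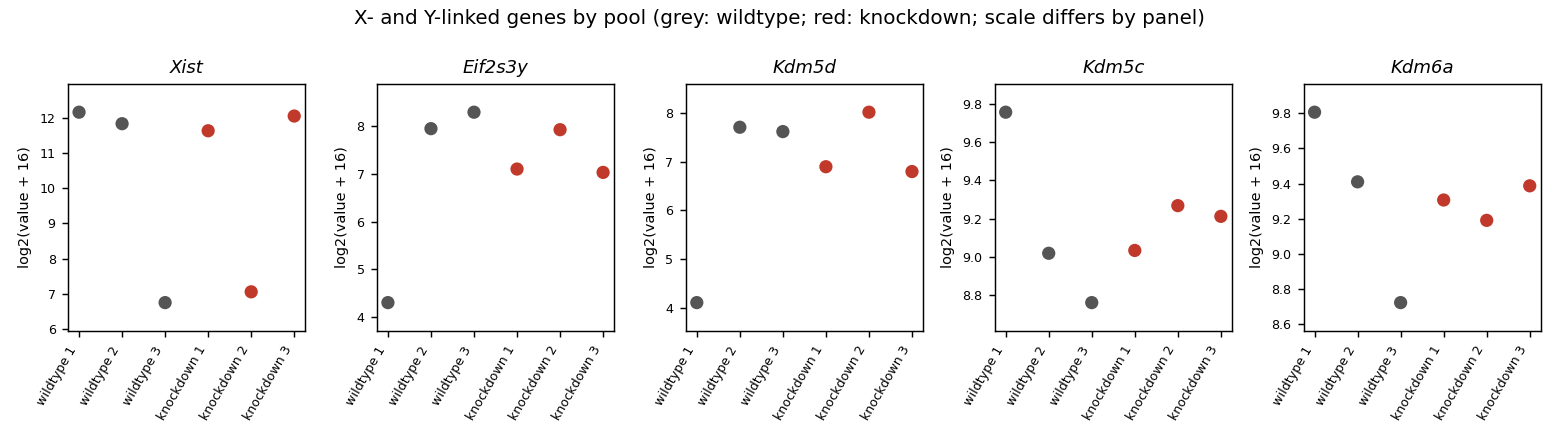
Log2(value + 16) of Xist, the Y-linked genes Eif2s3y and Kdm5d, and the X-linked genes Kdm5c and Kdm6a in each pool, grey for wildtype and red for knockdown, 1 point per pool. Wildtype pool 1 is lowest for both Y-linked genes drawn and highest for Kdm5c and Kdm6a, and wildtype pool 3 and knockdown pool 2 are low for Xist.

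Lysine methyltransferases were on the lower side in the knockdown pools for 12 of 16 genes, with a median difference of -0.076. The median was -0.0315 without wildtype pool 2 (10 of 16 lower), -0.018 without knockdown pool 1 (8 of 16 lower), and -0.12 to -0.15 without any 1 of the other arrays. Setd5, a SET domain gene whose loss is known to disturb transcription in development, had the smallest p of all members. It had log2 values of 8.62, 8.73 and 8.30 in the wildtype and 7.79, 8.20 and 7.74 in the knockdown pools. The groups did not overlap, with knockdown pool 2 closest to the wildtype pools (difference -0.64, SE 0.19, 95% interval -1.08 to -0.21, limma adjusted p = 0.564), a ratio of 0.641. Its 3 probe sets differed by -0.64, -0.30 and 0.34, and averaging them gave -0.20, with an unadjusted p above 0.05. Setd4 had 7.59, 7.89 and 7.47 against 7.95, 8.05 and 8.12. Wildtype pool 2 came close to the knockdown pools without reaching them (difference 0.39, SE 0.16, limma adjusted p = 0.686). Its other probe sets differed by -0.034 and -0.015, and the average over the 3 was 0.11.

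The enzymes that methylate lysine 4 of histone H3 were close between groups or varied within the knockdown group. Kmt2a (MLL1), a Hox gene activator needed by stem cells, differed by 0.10 (SE 0.21), Kmt2b by -0.030 (SE 0.15), Kmt2c by -0.21 (SE 0.20) and Kmt2d by 0.058 (SE 0.14). Setd1b had log2 values of 10.53, 10.93 and 10.63 in the wildtype and 9.66, 10.75 and 10.72 in the knockdown pools. Knockdown pool 1 alone was low, and the difference was -0.32 (SE 0.30). Setd7 was also lowest in knockdown pool 1, with 10.60, 10.70 and 10.37 against 9.63, 10.36 and 10.62 (difference -0.35, SE 0.26). Setd2, which trimethylates lysine 36 of histone H3, differed by -0.24 (SE 0.20), again with knockdown pool 1 lowest at 9.38. The enzymes for lysine 20 of histone H4, Kmt5a, Kmt5b and Kmt5c, differed by -0.019, -0.075 and 0.046.

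Acetyltransferase genes had 5 of 9 members on the higher side, with a median difference of 0.048 that ran from -0.062 to 0.045 with 1 array left out. Kat8 (MOF), which acetylates lysine 16 of histone H4, had log2 values of 7.83, 8.06 and 8.01 in the wildtype and 8.72, 8.43 and 8.28 in the knockdown pools. All knockdown pools lay above the wildtype pools, a difference of 0.51 (SE 0.16, 95% interval 0.13 to 0.89, limma adjusted p = 0.604) and a ratio of 1.42, from the 1 probe set of this gene. Across the alternatives that could be run it stayed between 0.39 and 0.605, with an unadjusted p above 0.05 without wildtype pool 1. Its partners in the MSL complex, Msl1, Msl2 and Msl3, named after their values were seen, differed by 0.085 (SE 0.13), -0.11 (SE 0.16) and -0.21 (SE 0.23).

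The coactivators Crebbp and Ep300, which acetylate histone H3 at enhancers, were close between groups. Crebbp had log2 values of 9.56, 9.88 and 9.52 in the wildtype and 9.32, 9.91 and 9.88 in the knockdown pools (difference 0.053, SE 0.20, interval -0.42 to 0.52). Ep300 had 8.99, 9.26 and 9.06 against 8.71, 9.22 and 9.08 (difference -0.10, SE 0.18, interval -0.51 to 0.31). In both genes knockdown pool 1 was the lowest of the 6 pools. Kat2b (PCAF) had 9.69, 10.01 and 9.62 against 9.17, 9.62 and 9.91, with overlap and a difference of -0.21 (SE 0.22). Kat2a, its paralogue, differed by 0.15 (SE 0.13), Kat5 by -0.12, Kat7 by -0.072, Kat6a by 0.076 and Kat6b by 0.048. The 3 probe sets of Kat2a ran from 0.15 to 0.44, the highest without overlap, and those of Kat6a from 0.050 to 0.26. For the others the sign depended on the probe set, from -0.12 to 0.31 for Kat5, -0.22 to 0.13 for Kat7 and -0.54 to 0.048 for Kat6b.

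Arginine methyltransferases were on the higher side in the knockdown pools for 7 of 8 genes, with a median difference of 0.14, which was 0.26 without wildtype pool 2 and 0.092 without knockdown pool 3. Prmt5, which makes symmetric dimethylarginine on histones and splicing proteins, had log2 values of 9.42, 9.59 and 9.61 in the wildtype and 10.26, 9.89 and 9.83 in the knockdown pools. The groups did not overlap, with knockdown pool 1 farthest from the wildtype pools (difference 0.45, SE 0.16, 95% interval 0.07 to 0.83, limma adjusted p = 0.661). Prmt7 differed by 0.30 (SE 0.15), also without overlap. Its dimmer probe sets differed by 0.10 and by -0.22, the latter without overlap on the lower side. Prmt1, the main enzyme for asymmetric dimethylarginine, had 9.26, 9.75 and 10.48 in the wildtype and 10.40, 9.89 and 10.44 in the knockdown pools. The wildtype pools spread so widely that its difference of 0.41 had an SE of 0.31. Prmt8, known mainly from brain, was the member on the lower side, with 9.21, 9.04 and 9.48 against 9.24, 9.27 and 9.12 (difference -0.033, SE 0.16). Prmt2, Prmt3, Prmt6 and Prmt9 differed by 0.061 to 0.17.

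Histone deacetylase genes of the zinc-dependent type had 0 of 11 members at an unadjusted p under 0.05, beside 7.63% of all genes. Hdac1, Hdac2 and Hdac3, the catalytic subunits of the main corepressor complexes, differed by -0.019 (SE 0.13), -0.036 (SE 0.14) and 0.11 (SE 0.13), and their intervals all lay between -0.36 and 0.41. These intervals hold for the brightest probe set of each gene. The other probe sets of Hdac2 differed by 0.34 (SE 0.19), with groups that did not overlap, and by -0.019 (SE 0.17). Hdac9 had log2 values of 6.86, 6.999 and 6.81 in the wildtype and 5.76, 6.55 and 6.90 in the knockdown pools. Knockdown pool 1 was far below the rest, and the difference was -0.49 (SE 0.28). Hdac10 had 8.42, 8.98 and 8.34 against 8.95, 8.86 and 9.05 (difference 0.38, SE 0.20), with wildtype pool 2 among the knockdown pools, and 0.58 without that pool (limma adjusted p = 0.376). Hdac11 differed by -0.45 (SE 0.32), and its wildtype values of 8.58, 9.45 and 8.13 were again highest in pool 2. Without that pool the difference of Hdac11 was -0.080, and without wildtype pool 3 it was -0.74. Hdac4 to Hdac8 differed by -0.24 (Hdac5) to 0.10 (Hdac7).

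Sirtuins, the NAD-dependent deacylases, were on the higher side for 5 of 7 genes, with a median difference of 0.17 (0.081 without wildtype pool 3 and 0.11 without knockdown pool 2). Of the 7 genes, 0 had an unadjusted p under 0.05, beside 7.63% of all genes. Sirt4, a mitochondrial sirtuin, had log2 values of 7.12, 6.76 and 7.25 in the wildtype and 7.59, 7.27 and 7.37 in the knockdown pools, just without overlap (difference 0.37, SE 0.18, limma adjusted p = 0.726), and the difference was 0.23 without wildtype pool 2. Sirt1, the nuclear sirtuin, had 8.43, 8.75 and 8.75 against 8.13, 8.56 and 8.66 (difference -0.19, SE 0.19). Sirt3, also mitochondrial, had 10.02, 10.85 and 10.12 against 10.70, 10.34 and 10.84 (difference 0.29, SE 0.25). Wildtype pool 2 was the highest of the 6 for Sirt3, and the difference was 0.55 without it, 0.14 without wildtype pool 1, 0.19 without wildtype pool 3 and 0.18 without knockdown pool 3. Sirt2, Sirt5, Sirt6 and Sirt7 differed by -0.083 to 0.19.

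**Figure D3:**
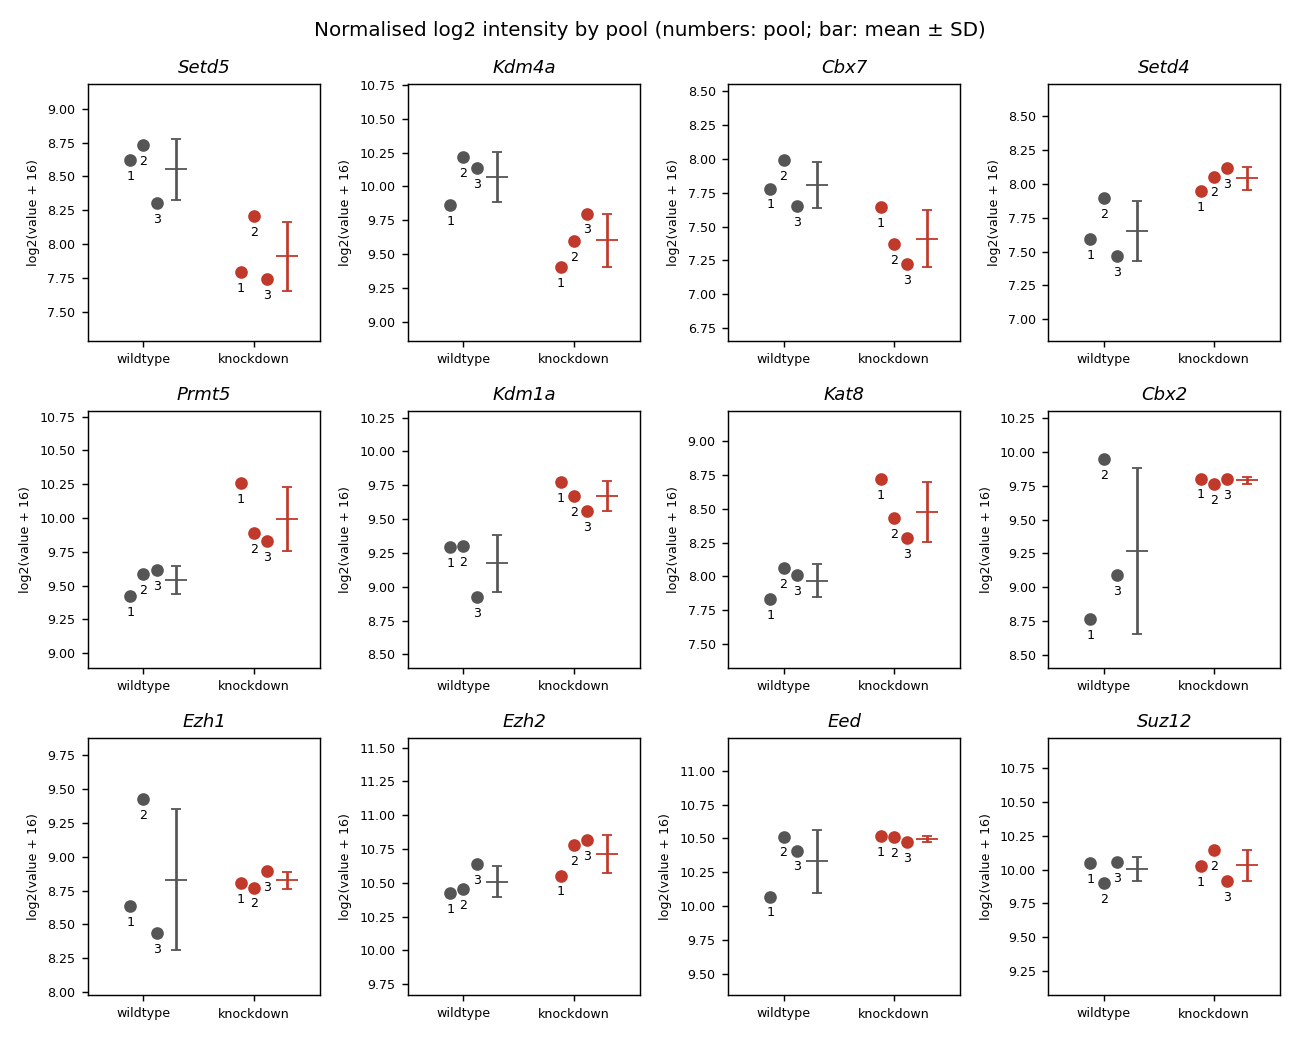
Log2(value + 16) in each pool of the 7 members with an unadjusted p under 0.05, of Cbx2 and of the 4 PRC2 core genes; points are pools with their number, and the bars give mean ± SD of 3 pools per group, on axes of equal span. The groups do not overlap in the first 7 panels, and wildtype pool 2 stands above the other wildtype pools for Cbx2 and Ezh1.

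Pool 2 of the wildtype group shaped the spread of these genes. It held the highest value of the 6 pools for 39 of 89 members (43.8%), against 18.2% of all genes, and the lowest for 7 (7.87%), against 23% of all genes. By class it was highest for 10 of 14 PRC1 genes, 9 of 16 lysine methyltransferases, 8 of 18 lysine demethylases and 4 of 9 acetyltransferases, and for 1 of 4 PRC2 core genes. The median deviation of the members from their mean over all pools was 0.17 in wildtype pool 2, -0.065 and -0.031 in wildtype pools 1 and 3, and 0.012 to 0.045 in the knockdown pools. Over all genes the same medians ran from -0.0285, in wildtype pool 2, to 0.0413, in knockdown pool 1. This pool was also the one with the highest stem and progenitor and the lowest granule gene sums given above, and the part of cell makeup in the member values was not tested.

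Without wildtype pool 2, 48 members were on the higher and 41 on the lower side in the knockdown pools, and 10 members had turned their sign. Leaving out a pool that was highest for 43.8% of the members moves them to the higher side by itself. The counts without it are therefore not a result about the knockdown. The knockdown pools then lay above both remaining wildtype pools for 22 members (24.7%), against 16.1% of all genes, and below them for 6, against 12.5%. At an unadjusted p under 0.05 there were 7 higher members (7.87%, beside 5.38% of all genes), namely Cbx2, Hdac10, Setd4, Kdm1a, Kat8, Sirt3 and Prmt5, and Setd5 alone on the lower side (beside 4.46% of all genes). Their adjusted p in limma was 0.248 to 0.564. Kdm4a, at -0.40, was no longer among them (limma adjusted p = 0.632). Without wildtype pool 1, by contrast, 1 member was higher (beside 2.95% of all genes) and 2 lower (beside 2.39%) at an unadjusted p under 0.05, and the groups did not overlap for 9 on the higher (beside 13.4%) and 11 on the lower side (beside 8.92%). Knockdown pool 1 held the lowest value for 22 members (24.7%, beside 18.4% of all genes).

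**Figure D4:**
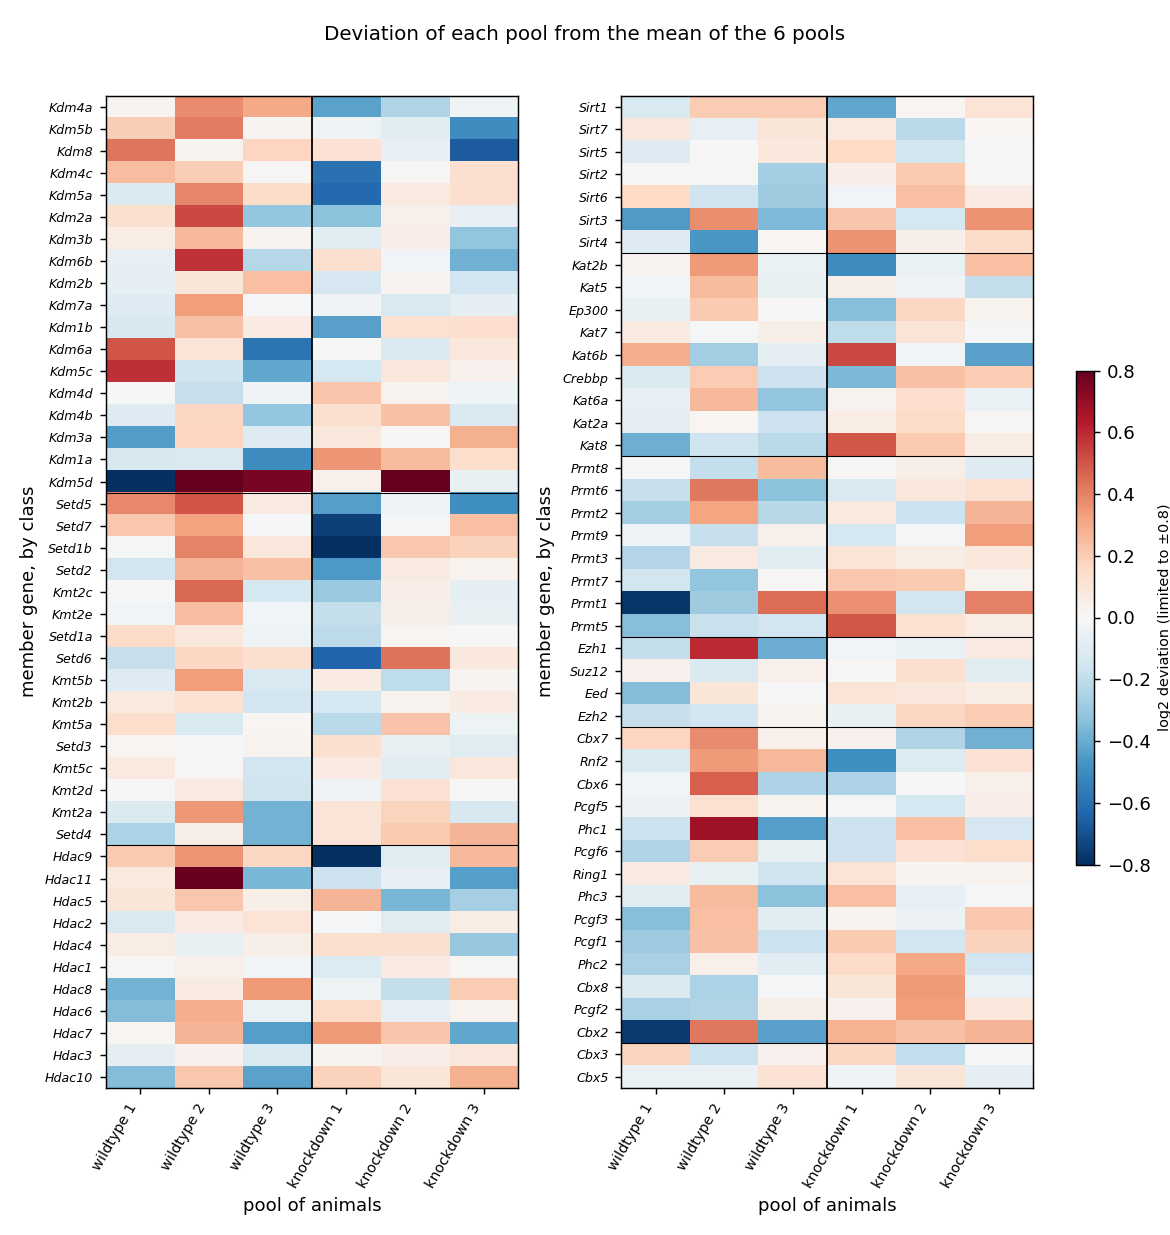
Deviation of each pool from the mean of the 6 pools on the log2(value + 16) scale for the 89 members, with classes divided by horizontal lines and ordered by difference within a class; colours are limited to ±0.8. Red is frequent in the column of wildtype pool 2, and the rows of Setd1b, Setd7 and Hdac9 are deepest blue in knockdown pool 1.

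**Figure D5:**
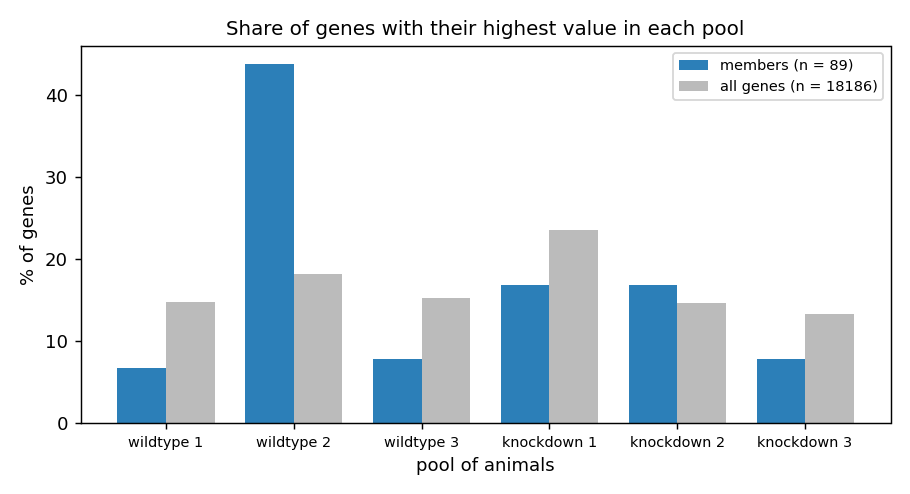
Share of genes whose highest value of the 6 lay in each pool, in percent, for the 89 members and for all 18186 genes. Wildtype pool 2 holds the highest value for 43.8% of the members and 18.2% of all genes.

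Subunits and readers outside the naming rule, from lists of 6 kinds of chromatin partner, gave 102 measured genes of 109 listed. None passed the adjusted test (0 of 102, limma), and 4 had an unadjusted p under 0.05 (3.92%, beside 7.63% of all genes). They were on the higher side for 62 genes and on the lower side for 40, with a median difference of 0.038. Mta3, a subunit of the NuRD deacetylase complex, had log2 values of 8.06, 8.94 and 8.64 in the wildtype and 9.63, 9.64 and 9.58 in the knockdown pools. The groups were well apart (difference 1.07, SE 0.22, limma adjusted p = 0.458), but its 3 probe sets ran from -0.082 to 1.07. Sap30, a subunit of the Sin3 deacetylase complex, had 8.77, 8.89 and 8.78 against 9.19, 9.45 and 9.56 (difference 0.59, SE 0.15, limma adjusted p = 0.526). All knockdown pools lay above the wildtype pools for Sap30.

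Men1, which encodes menin and tethers Kmt2a, had log2 values of 8.49, 8.63 and 8.68 in the wildtype and 9.21, 8.92 and 8.86 in the knockdown pools (difference 0.40, SE 0.15, limma adjusted p = 0.675). The groups did not overlap, and its 3 probe sets differed by 0.39 to 0.51. Brpf1, a scaffold of the Kat6a and Kat6b complexes, had 9.48, 9.52 and 9.52 against 8.98, 9.26 and 9.20 (difference -0.36, SE 0.14, limma adjusted p = 0.676), also without overlap. Among the 20 measured Polycomb accessory genes 0 had an unadjusted p under 0.05, beside 7.63% of all genes. Bmi1, the PRC1 subunit known for stem cell self-renewal and named here after its values were seen, had 8.55, 8.82 and 8.70 in the wildtype and 7.76, 8.37 and 8.52 in the knockdown pools. These groups did not overlap either (difference -0.47, SE 0.22, limma adjusted p = 0.721).

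The promoters of the members were read for the letters of a PU.1-type motif, GAGGAAG, and of an AP-1-type motif, TGACTCA, the kind bound by Jun and Fos proteins, on both strands. RefSeq promoters of build GRCm38.p6, running from 250 bases before to 50 after a start site, were found for 75 of the 89 members and gave 102 windows. The PU.1-type letters stood in 9 of the 102 (8.82%), against 13.6% of all 32851 promoters, and the AP-1-type letters in 8 (7.84%), against 5.2%. The 2 motifs overlapped in no member window. Of the 7 members with an unadjusted p under 0.05, all with a promoter in the table, Kat8 and Kdm4a held an AP-1-type match and 0 held a PU.1-type match. Kdm5b, just outside that threshold, held the PU.1-type letters at 2 places. These 3 promoters are shown because they belong to the members of smallest p that hold either motif, with the motif in capitals and the rest in lower case, 5′ to 3′ along the gene.
Kat8 promoter: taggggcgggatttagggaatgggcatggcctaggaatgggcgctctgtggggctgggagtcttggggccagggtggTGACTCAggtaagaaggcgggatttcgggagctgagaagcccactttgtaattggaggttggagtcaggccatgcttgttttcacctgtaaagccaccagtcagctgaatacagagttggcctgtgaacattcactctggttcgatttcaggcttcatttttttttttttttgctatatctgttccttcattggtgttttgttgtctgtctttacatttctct
Kdm4a promoter: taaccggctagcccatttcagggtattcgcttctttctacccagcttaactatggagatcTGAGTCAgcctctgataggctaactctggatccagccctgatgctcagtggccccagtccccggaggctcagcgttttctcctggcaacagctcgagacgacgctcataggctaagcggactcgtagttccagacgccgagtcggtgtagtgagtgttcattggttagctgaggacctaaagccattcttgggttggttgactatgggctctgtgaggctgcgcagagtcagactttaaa
Kdm5b promoter: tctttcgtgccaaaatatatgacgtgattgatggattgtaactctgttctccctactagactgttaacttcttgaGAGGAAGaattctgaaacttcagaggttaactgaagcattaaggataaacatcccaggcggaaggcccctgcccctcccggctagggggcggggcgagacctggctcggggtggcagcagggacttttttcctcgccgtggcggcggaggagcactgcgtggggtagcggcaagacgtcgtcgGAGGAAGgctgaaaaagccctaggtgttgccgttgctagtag
The Kat8 window lies at chr7:127912764-127913063 on the plus strand, and its match begins 173 bases before the start site. The Kdm4a window is chr4:118179994-118180293 on the minus strand, and its match, read as TGAGTCA because it lies on the opposite strand of the gene, begins 190 bases before the start site. The Kdm5b window is chr1:134559928-134560227 on the plus strand, with matches beginning 175 bases before and 8 bases after the start site. Kat8 had a difference of 0.51, Kdm4a of -0.47 and Kdm5b of -0.42, so matches of the same kind stood beside differences of both signs. A match is a run of letters and shows no binding.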

How the data were processed

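Bone marrow HSC of 3 wildtype and 3 PU.1 knockdown pools were measured on 1-colour Affymetrix arrays. The authors deposited a processed linear intensity per probe set. Which software and which background and scaling steps made it was not given in the sources used here, and 264 to 409 values per array were below 0. Values under 1 were set to 1, values were put on a log2(value + 16) scale, which understates the folds of dim probe sets, and arrays were quantile normalised, since their medians ran from 6.605 to 6.748. All 44991 probe sets were tested with limma 3.58.1 (lmFit, eBayes) in R 4.3.3 by two-sided tests, adjusted after Benjamini and Hochberg across the whole table, at a threshold of 0.05. With 3 pools against 3, an exact permutation test cannot go below 0.1, the value it gave for every member whose groups did not overlap.

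Genes were named from the platform annotation (34921 probe sets with 1 symbol, 930 with several and 9140 with none). The gene IDs of all 218 member probe sets were found in the RefSeq table of GRCm38.p6 with the same symbol. Values in every pool are given for the PRC2 core, Ring1, Rnf2, Crebbp, Ep300, each member with an unadjusted p under 0.05 and the member of smallest p per class and direction, and for partners with an unadjusted p under 0.05. Members, lists and rules were chosen with earlier results of these data known, and the X- and Y-linked genes and other genes named with pool values were added after values were seen. The fit was tested on simulated data. The alternatives were the values as deposited, median centring, pseudocounts of 1 and 64, a filter at the 40th percentile, eBayes with trend and robust settings, array weights, the replicate number as a block, other probe set choices and leaving out each array. Plots used matplotlib 3.10.9 under Python 3.11.15.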

Additional observations from a re-analysis of the deposited data

How the results depend on the processing

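The number of arrays limits precision, and no alternative gave a member or a partner gene an adjusted p under 0.05. Probe sets called over the whole table were 0 in every setting run on the probe set table except with 1 array left out, where they were 0 to 2 (1 without wildtype pool 1, 2 without wildtype pool 2, 1 without wildtype pool 3 and 1 without knockdown pool 2). Members at an unadjusted p under 0.05 on the lower side were 5 with the values as deposited in place of 3, and on the higher side 2 with probe sets ending in _x_at or _s_at left out in place of 4. With 1 array left out these counts ran from 1 to 7 on the higher side (1 without wildtype pool 1, 7 without wildtype pool 2) and from 1 to 5 on the lower (1 without wildtype pool 2 or knockdown pool 2, 5 without knockdown pool 1). The shares of all genes moved too. Without wildtype pool 1 they were 2.95% higher and 2.39% lower, and without wildtype pool 2 they were 5.38% and 4.46%. Members whose groups did not overlap ran from 7 to 22 on the higher side and from 6 to 11 on the lower, since 3 pools against 2 separate more easily. The median difference of the members ran from -0.0685 with the values as deposited, when that of all genes was -0.0417, to 0.0302 without wildtype pool 2. Partner genes at an unadjusted p under 0.05 were 11 with a pseudocount of 64 in place of 4, and 2 to 5 with 1 array left out, 2 of them without knockdown pool 1. The shares over all genes are not given here for the deposited values, the probe set choice, the pseudocount or the replicate block below. Those counts are therefore not read as results about the members or partners.

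With the replicate number as a block, 2 higher and 3 lower members had an unadjusted p under 0.05. The numbers are not shown to pair the pools, since deviations of same-numbered pools correlated at 0.178, 0.061 and -0.039, and not every pool correlated best with its own number (wildtype pool 2 did so with knockdown pool 3, at 0.154). Over all settings 42 of the 89 members turned their sign at least once, 39 of them with 1 array left out (7 to 15 members per array), and 0 of these turned values had an unadjusted p under 0.05 in limma. Among the members and partners followed by name, 17 values turned. With the values as deposited Crebbp was at -0.018 and Suz12 at -0.040, with array weights Ezh1 was at 0.14, and with probe sets averaged Pcgf2 was at -0.021. With 1 array left out, the ranges of these named genes that crossed 0 were -0.203 to 0.291 for Ezh1, -0.118 to 0.0648 for Cbx3, -0.0293 to 0.0849 for Suz12, -0.137 to 0.0873 for Prmt8, -0.0496 to 0.244 for Crebbp and -0.208 to 0.0452 for Ep300. Of the 7 members with an unadjusted p under 0.05, Setd5 kept it with each array left out, though not with probe sets averaged. Kdm1a lost it without wildtype pool 3, Kat8 without wildtype pool 1, Prmt5 without wildtype pool 1 or knockdown pool 1, and Kdm4a, Setd4 and Cbx7 in 4 of the 6 such fits each. The causes were not tested.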
